A study of Homo sapiens with 9 samples.

Results

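Interleukin-1 (IL-1) family transcripts were followed in UPCI-SCC-040, a squamous cell carcinoma line of tongue origin, before and after exposure to transforming growth factor β1 (TGF-β1). The genes described are 9 of the 58233 gene identifiers in the count tables: the ligands IL1A, IL1B, IL1RN, IL18, IL33 and IL36G, and the receptor chains IL1R1, IL1R2 and IL1RAP. They were listed by symbol with earlier results of these libraries known. Which values led to the choice is not recorded. Their values and calls are therefore given as a description and not as a test, and nothing is read from how many of them differ.

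Each of the 3 groups held 3 libraries of total RNA. The control group had received no TGF-β1 and is labelled 0 h. The other groups had received 5 ng/ml TGF-β1 for 48 h or 72 h. Per the labels' protocols the cells were grown with 10% fetal bovine serum, whereas TGF-β1 was given in medium free of serum and antibiotics. No source used here says whether the controls were also without serum, so effects of TGF-β1, of serum withdrawal and of time in culture cannot be told apart. The single line was used at passage 12, 13 and 8 for replicates 1, 2 and 3 of every group. Passage is the only label that sets the replicates apart, so p-values measure the spread between these samples, which may be technical.

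IL-1α (IL1A) and IL-1β (IL1B) both bind the signalling receptor IL1R1, which then recruits the accessory chain IL1RAP and passes the signal through MYD88 and the IRAK kinases to NF-κB. The receptor antagonist (IL1RN) occupies IL1R1 without recruiting IL1RAP, and the decoy receptor IL1R2 binds the ligands but lacks a signalling domain. Pro-IL-1β and pro-IL-18 are cut by caspase-1 in inflammasomes, whereas IL-1α is active in its uncut form. Squamous epithelium is a recognised store of IL-1α, IL-18, IL-36γ (IL36G) and IL-33. Protein, cleavage and release were not measured here, and the values are of transcripts.

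The labelled cell type was checked against marker genes. All 8 epithelial markers were expressed, at a summed level of 10542 to 19021 CPM (counts scaled to the size of each library) in controls. Their sum was 23621 to 29677 CPM after 48 h, and after 72 h it was 15238 to 24614 CPM. The highest value of a single epithelial marker was 10511 CPM, so the sum follows the most abundant genes. It does not show how each marker changed. Myeloid cells are strong producers of IL-1β. Their 8 markers summed to at most 2.72 CPM in any library, no single one passed 1.3 CPM, and TYROBP was at 0 throughout. The 6 fibroblast and endothelial markers summed to between 0.0603 and 0.215 CPM in controls, between 0.123 and 1.22 CPM after 48 h, and between 0.228 and 2.84 CPM after 72 h. Library totals ran from 12544690 to 20438727 counts. On a first principal component (59.6% of variance) the replicate 3 library at 72 h had a score of 84.4, whereas the remaining 5 treated libraries scored 9.13 to 37.8 and controls -75.2 to -63.7. That library therefore differs from its group, and the members' 72 h values are also given without it. In bulk RNA, fewer cells of a type and less RNA per cell cannot be told apart.

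IL1A and IL1B lie next to each other on chromosome 2 and were the family members with the most transcript per length in controls. All 6 treated libraries were below all controls for both genes, and also for IL1R2, narrowly at 72 h. Among tested genes, 28.1% lay all below the controls at 48 h and 27.7% at 72 h. The stretches just upstream of IL1A and IL1B are printed. They come from RefSeq (GRCh38.p14) and run 5′ to 3′ on the minus strand up to the base before the gene start of GENCODE release 29, the annotation used here. The IL1A stretch is chr2:112784591-112784743 and the IL1B stretch chr2:112836904-112837029. Capitals mark a TATAAA match.
IL1A: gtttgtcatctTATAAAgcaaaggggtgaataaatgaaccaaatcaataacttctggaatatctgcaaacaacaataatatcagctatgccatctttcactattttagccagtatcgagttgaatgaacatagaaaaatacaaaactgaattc
IL1B: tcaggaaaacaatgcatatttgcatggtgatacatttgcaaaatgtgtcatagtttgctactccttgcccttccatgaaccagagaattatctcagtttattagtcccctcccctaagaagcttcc
The search covered both strands of the 250 bases before each RefSeq start. It was made for TATAAA, for TGANTCA (an AP-1 motif), for CAGACA (the SMAD-binding CAGA box) and for the NF-κB consensus. Bases of a window inside the annotated gene were searched but are not printed, and the AP-1 matches of IL1A lie among them. All windows of IL1RN and IL1R1 lay inside the annotated gene, before RefSeq starts 10757 to 78202 bases past the gene start. The IL1A window before the RefSeq start at 112784493 held TATAAA at -239 to -234 and TGANTCA at -12 to -6, counted back from that start. A further RefSeq start of IL1A, at 112784400, had TGANTCA at -105 to -99, the same bases, and at -55 to -49. None of the 4 motifs was found in the IL1B window before the RefSeq start at 112836779. Over all 35116 windows, TATAAA was present in 10.7%, TGANTCA in 6.57%, CAGACA in 13.6% and the NF-κB consensus in 9.96%, so each is common, and a match is only a match of letters. In the windows of other members, the one before the IL1R2 start at 101991960 held TATAAA at -30 to -25 and an NF-κB consensus match at -125 to -116. IL1RN, with 3 windows, had TGANTCA at -223 to -217 before its start at 113117971 and overlapping TATAAA matches at -32 to -27 and -30 to -25 before that at 113127598. IL1R1 had TATAAA at -229 to -224 and -124 to -119 before its start at 102142306 and the only CAGACA match, at -88 to -83 before that at 102104604.

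IL1A (ENSG00000115008, chr2:112773915-112784590, minus strand) encodes IL-1α. It measured 174, 284 and 264 CPM in control replicates 1, 2 and 3, 85.8, 87.1 and 37.1 CPM at 48 h, and 60.7, 148 and 7.66 CPM at 72 h. Every treated library was below every control, but the 72 h libraries covered a wide range. The group means were 241 ± 58.4 CPM in controls, 70.0 ± 28.5 at 48 h and 72.0 ± 70.7 at 72 h (SD, n = 3). The fitted log2 fold change against control was -1.78 ± 0.82 (approximate SE) at 48 h, a 3.43-fold lower level, and -1.74 ± 0.82 at 72 h. Within the passages, the 72 h to control log2 ratio was -1.52, -0.94 and -5.11 for replicates 1, 2 and 3. Replicate 3, at passage 8, thus had the lowest IL1A level after both treatment times. The 72 h log2 fold change was -1.20 without the 72 h library of replicate 3, -2.80 without that of replicate 2 and -2.31 with the replicate number, and so the passage, as a block in the fit.

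IL1B (ENSG00000125538, chr2:112829751-112836903, minus strand) encodes IL-1β and showed the lowest treated to control ratio of the 8 members tested. Its controls lay close together at 89.8, 88.8 and 82.3 CPM, against 9.72, 9.01 and 4.81 CPM at 48 h and 5.58, 15.4 and 1.30 CPM at 72 h. No treated library came near the controls, and the highest of them was replicate 2 at 72 h. The mean at 72 h was 7.44 ± 7.25 CPM against 87.0 ± 4.03 in controls (SD, n = 3). The log2 fold change was -3.46 ± 0.69 at 48 h and -3.54 ± 0.69 at 72 h, 11.0-fold and 11.6-fold lower levels. Passage by passage, the 72 h to control log2 ratios were -4.01, -2.52 and -5.99, so the 72 h order of the passages was the same as for IL1A. The 72 h log2 fold change was -3.04 without the 72 h library of replicate 3 and -4.63 without that of replicate 2.

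IL1B was lower relative to controls than IL1A was, so the balance of the 2 agonists differed. Per kilobase of annotated exon, the ratio of IL1A to IL1B was 2.83, 4.66 and 4.68 in controls, 12.9, 14.1 and 11.2 at 48 h, and 15.8, 13.9 and 8.61 at 72 h. All 6 treated libraries had a higher ratio than all controls.

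**Figure D1:**
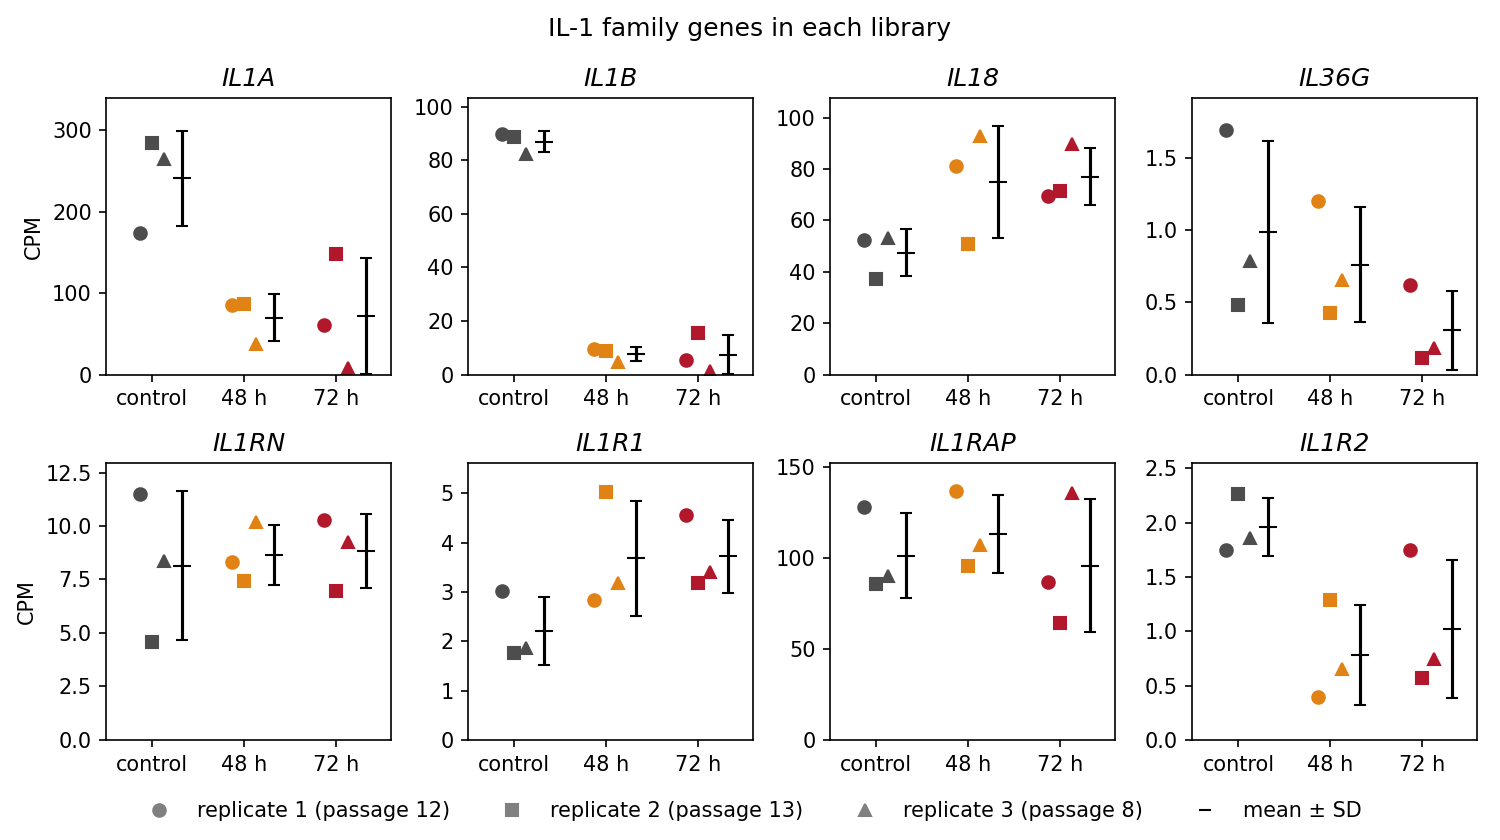
TMM-scaled CPM (linear axes from 0) of the 8 tested IL-1 family members in control, 48 h and 72 h libraries; each point is 1 library, its shape the replicate number and its colour the group, and the bars are mean ± SD (n = 3). IL1A, IL1B and, narrowly at 72 h, IL1R2 lie below all controls in all 6 treated libraries, and the groups overlap for IL1RN, IL1RAP and IL36G.

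IL1RN (ENSG00000136689, chr2:113107214-113134016, plus strand), the receptor antagonist, gave 11.5, 4.56 and 8.38 CPM in controls. The treated libraries lay inside that range, at 8.33, 7.41 and 10.2 CPM at 48 h and 10.3, 6.95 and 9.27 CPM at 72 h. The log2 fold change was 0.09 ± 0.31 at 48 h and 0.12 ± 0.31 at 72 h, and leaving out control replicate 2 turned these to -0.21 and -0.17. With the agonists lower and the antagonist within its control range, the summed agonist to antagonist ratio per kilobase was 31.6, 116 and 58.6 in controls. It was 17.0, 19.3 and 6.08 at 48 h, below all controls, and 9.64, 34.9 and 1.41 at 72 h. The 72 h value of replicate 2 was above the lowest control. Agonist transcripts thus outnumbered those of the antagonist per length in every library, by the least in the 72 h library of replicate 3.

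IL18 (ENSG00000150782, chr11:112143251-112164117, minus strand) encodes a ligand with its own receptor pair and, like IL-1β, a caspase-1 substrate. It lay in the opposite direction to IL1B, with 52.4, 37.2 and 53.0 CPM in controls, 81.0, 50.7 and 93.0 CPM at 48 h and 69.6, 71.6 and 89.9 CPM at 72 h. All 72 h libraries were above all controls, while replicate 2 at 48 h was within the control range. Means were 47.5 ± 8.98, 74.9 ± 21.8 and 77.0 ± 11.2 CPM (SD, n = 3). The log2 fold change was 0.66 ± 0.23 at 48 h and 0.70 ± 0.23 at 72 h, or 1.58-fold and 1.62-fold higher levels. Within each passage the treated library was above its own control at both times, by 0.63, 0.45 and 0.81 (log2 ratio) at 48 h and by 0.41, 0.95 and 0.76 at 72 h. Without the 72 h library of replicate 3 the 72 h value was 0.58.

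IL36G (ENSG00000136688, chr2:112973203-112985665, plus strand) encodes an epithelial agonist that signals through IL1RL2 and IL1RAP. It had only 103 counts over all 9 libraries: 28, 9 and 11 in controls, 24, 7 and 8 at 48 h, and 11, 2 and 3 at 72 h. Replicate 1 held the most in each group, and the groups overlapped. The log2 fold change was -0.34 ± 0.63 at 48 h, turning to 0.30 without control replicate 1, and -1.65 ± 0.69 at 72 h. Each 72 h library was nevertheless below the control of its own passage, with log2 ratios of -1.44, -2.08 and -2.09. At 72 h the value ranged from -2.67 without the 72 h library of replicate 1 to -1.01 without control replicate 1.

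IL33 (ENSG00000137033, chr9:6215786-6257983, plus strand), an alarmin kept in the nucleus of epithelial cells, was not detectable at this depth. A single count was found, in the 48 h library of replicate 2. A count of 0 allows up to 3 counts, or 0.147 to 0.239 CPM by library, for counting error only. It was the only member left out of the tests by the filter on low counts.

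Among receptor chains, IL1R1 (ENSG00000115594, chr2:102064544-102179874, plus strand), which binds IL-1α, IL-1β and the antagonist, was scarce. It reached 3.01, 1.77 and 1.86 CPM in controls, 2.84, 5.02 and 3.18 CPM at 48 h and 4.57, 3.19 and 3.40 CPM at 72 h. All 72 h libraries were above all controls, whereas at 48 h replicate 1 was inside the control range. The log2 fold change was 0.73 ± 0.32 at 48 h and 0.74 ± 0.32 at 72 h. These rest on 26 to 82 counts per library. The 48 h value was 0.32 without replicate 2 of all groups and 1.18 without replicate 1 of all groups.

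IL1R2 (ENSG00000115590, chr2:101991844-102028544, plus strand), the decoy, differed from IL1R1 in direction. Controls had 1.75, 2.26 and 1.86 CPM, the 48 h libraries 0.399, 1.29 and 0.652 CPM, and the 72 h libraries 1.75, 0.570 and 0.741 CPM. At 48 h all libraries were below the controls. At 72 h replicate 1 was level with its own control, with a log2 ratio of -0.00, and the others were lower. The log2 fold change was -1.33 ± 0.51 at 48 h and -0.93 ± 0.49 at 72 h, on 8 to 42 counts per library, and the 72 h value was -1.57 without the 72 h library of replicate 1. The ratio of IL1R1 to IL1R2 per kilobase was 0.748, 0.341 and 0.434 in controls, 3.09, 1.69 and 2.12 at 48 h, and 1.13, 2.43 and 1.99 at 72 h. Per kilobase of annotated exon, the decoy was thus higher in each control and the signalling receptor in each treated library. In CPM, IL1R1 was also above IL1R2 in each treated library. Among controls it was above IL1R2 in replicate 1, level in replicate 3 and below in replicate 2. The order in controls therefore rests on the annotated lengths, 7083 bases for IL1R1 and 3073 for IL1R2. The transcript forms expressed were not determined.

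IL1RAP (ENSG00000196083, chr3:190514051-190659750, plus strand), the accessory chain shared by receptors for IL-1, IL-33 and IL-36, was far more abundant. It gave 128, 85.6 and 90.3 CPM in controls, 137, 95.8 and 107 CPM at 48 h and 86.9, 64.4 and 136 CPM at 72 h. The groups overlapped at both times, with log2 fold changes of 0.16 ± 0.27 and -0.08 ± 0.27. At 72 h replicates 1 and 2 were below their own controls, at log2 ratios of -0.55 and -0.41, and replicate 3 was above, at 0.59. Without the 72 h library of replicate 3 the 72 h log2 fold change was -0.41. Per kilobase, IL1RAP exceeded IL1R1 in every library, by 26.0 to 29.7 times in controls and 11.7 to 29.6 times in treated libraries. The IL1RAP gene body also holds the small pseudogene GCNT1P3 and RN7SKP296 on its strand, with 63 and 32 counts over all libraries.

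**Figure D2:**
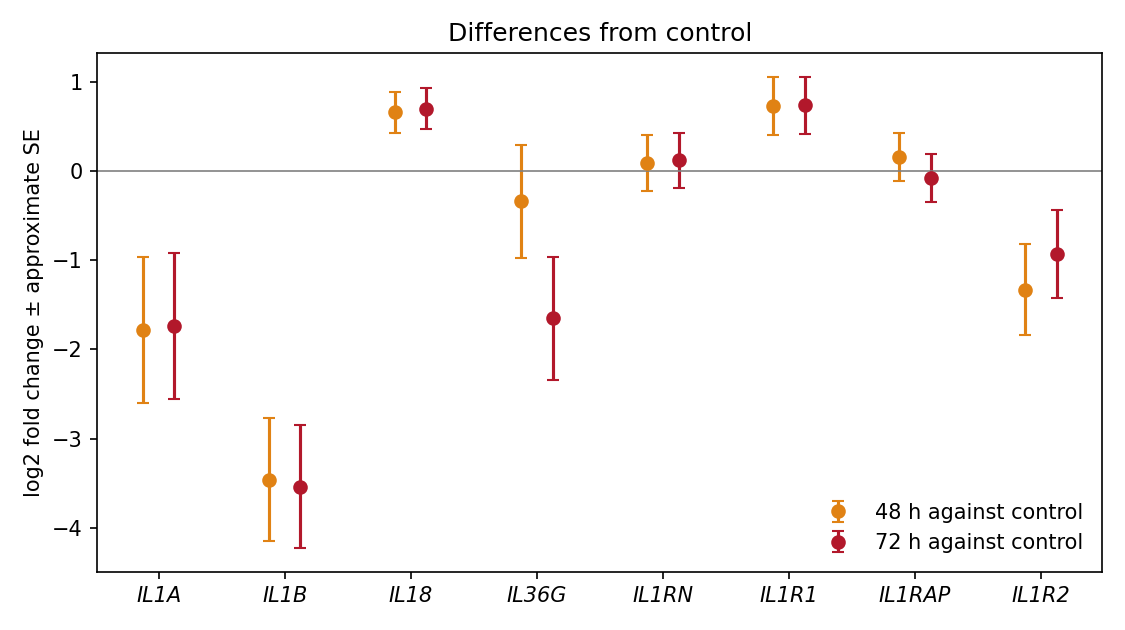
Log2 fold change (edgeR, all 9 libraries) of each tested IL-1 family member at 48 h and 72 h against control; points are fitted values and bars approximate SE. IL1B lies lowest at both times (-3.46 and -3.54), IL1RN and IL1RAP lie near 0, and IL18 and IL1R1 lie above 0.

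Over the 9 genes, 8 were tested. At 48 h, 1 member (IL1B) passed an adjusted p of 0.05 as lower and 0 as higher, where 16.0% and 14.9% of all 15440 tested genes did so (31.0% in either direction). The 48 h libraries of 3 members (IL1A, IL1B and IL1R2) lay all below the controls, as did those of 28.1% of tested genes, and 0 lay all above, as did those of 25.6%, or 53.7% in either direction. At 72 h, IL1B passed as lower and IL18 as higher, where 19.4% and 20.4% of tested genes did, 39.8% in all. At that time 3 members (IL1A, IL1B and, by less than the printed digits show, IL1R2) lay below and 2 (IL1R1 and IL18) above all controls, as did 27.7% and 27.3% of tested genes, 55.1% in all. The median log2 fold change of the tested members was -0.13 at 48 h and -0.51 at 72 h, beside -0.00 and 0.03 over all tested genes. Several calls turned under other settings. At 48 h IL18 also passed as higher in DESeq2, with its size factors, upper-quartile scaling, no low-count filter, the replicate block or only 2 groups, IL1A passed as lower with only 2 groups, and IL1R2 did so with only 2 groups or no filter. At 72 h IL36G passed as lower with no filter or the replicate block. Leaving out the 72 h library of replicate 3 brought IL1A, IL1R2 and IL18 past the threshold at 48 h and ended the call of IL18 at 72 h, which was also lost without any 1 control, 48 h replicate 1 or 72 h replicate 2. At 48 h IL18 and IL1R2 were each called without 48 h replicate 2, and IL1R2 without 72 h replicate 1. At 72 h IL1A was called without 72 h replicate 2, and IL1R2 and IL36G without 72 h replicate 1. IL1B lost both of its calls only with all libraries of replicate 1 left out. Without the 72 h library of replicate 3, the 72 h log2 fold change was 0.09 for IL1RN, -1.39 for IL36G, 0.81 for IL1R1 and -0.75 for IL1R2. The 2 contrasts share the control libraries, and the members were chosen with results of these libraries known. Nothing is therefore read from these counts or from any single call of a member.

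Between 48 h and 72 h the fitted difference was smaller than its SE for every tested member but IL36G. IL1A differed by 0.04 ± 0.80, IL1B by -0.08 ± 0.66, IL1RN by 0.03 ± 0.31, IL1R1 by 0.01 ± 0.31, IL1RAP by -0.24 ± 0.27 and IL18 by 0.04 ± 0.23 (log2, 72 h against 48 h). IL36G, at -1.31 ± 0.71, and IL1R2, at 0.40 ± 0.52, had the largest values, on few counts. For no tested member were the libraries of the 2 times separate, where 12.2% of tested genes were (7.07% higher and 5.17% lower at 72 h). No member was called, and with edgeR 0.00% of all tested genes were called between the times, with 1382 at an unadjusted p under 0.05 and 41 calls in DESeq2. The spread of the agonists was larger at 72 h than at 48 h. Without the 72 h library of replicate 3 IL1A would differ by 0.57 and IL1B by 0.40, and without that of replicate 2 by -1.04 and -1.20.

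**Figure D3:**
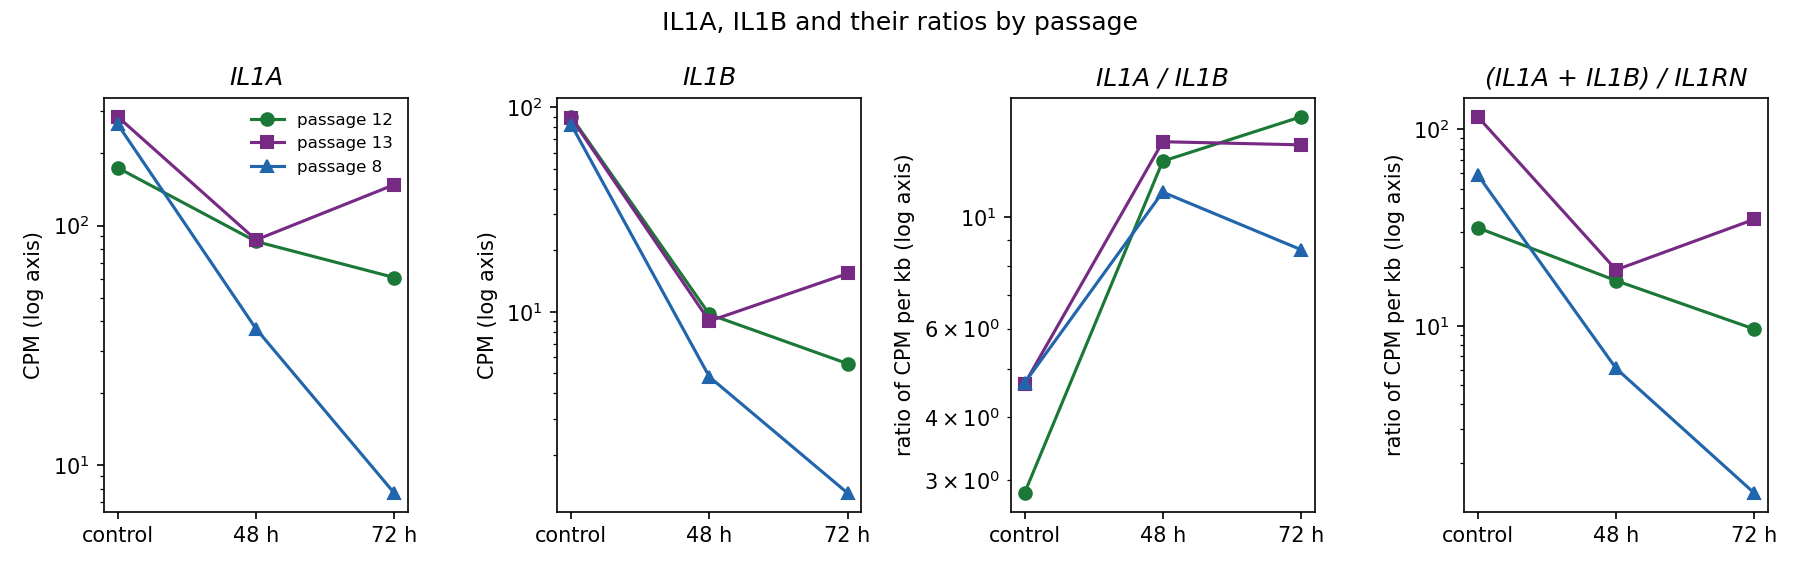
IL1A and IL1B in CPM, and the ratios of IL1A to IL1B and of their sum to IL1RN in CPM per kilobase (all log axes), in control, 48 h and 72 h libraries; each point is 1 library and lines join libraries of the same passage. Passage 8 (replicate 3) has the lowest IL1A and IL1B levels at 48 h and at 72 h (7.66 and 1.30 CPM at 72 h), and its ratio of both agonists to IL1RN is 1.41 at 72 h.

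Levels of different genes can be set side by side only per length, here as CPM per kilobase of annotated exon. In controls IL1A stood first at 113, ahead of IL1B at 28.1, IL18 at 18.1, IL1RAP at 8.76 and IL1RN at 2.5. The ranges of these neighbours did not overlap. IL36G at 0.715 and IL1R2 at 0.636 overlapped, IL1R1 followed at 0.313, and IL33 was at 0. At 48 h IL1A and IL18 overlapped at the top, at means of 33.0 and 28.5, and IL1B at 2.53 overlapped the antagonist IL1RN at 2.65. IL1B had thus moved from the second to the fifth place. The first 5 places were the same at 72 h. IL1A then averaged 33.9 with a range of 3.61 to 69.5, IL18 29.3 and IL1B 2.40. IL18 was above IL1A in the 72 h library of replicate 3 and below it in the 72 h library of replicate 2.

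IL1A, IL1B, IL36G and IL1RN share a 360 kb cluster of ligand genes (chr2:112773915-113134016) with 15 annotated genes, of which 14 had a count and 5 passed the filter. The gene that passed beside these 4 members was IL36RN, the antagonist of the IL-36 receptor. IL36RN had 5.00, 2.68 and 3.51 CPM in controls and 1.72 to 4.45 CPM in treated libraries, and did not pass at either time (edgeR adjusted p 0.274 and 0.455). The remaining neighbours had 36 counts or fewer over all 9 libraries: IL1F10 had 36, AC079753.1 28, XIAPP3 18, IL37 18, IL36B 3, HMGN2P23 3, RNU6-1180P 2, IL36A 1 and CDK8P2 1. IL1R2 and IL1R1 open a 461 kb cluster of receptor genes (chr2:101991844-102452565) with 12 annotated genes, of which 6 had a count. The IL-36 receptor IL1RL2 held 197 counts over all libraries, the IL-18 receptor chain IL18R1 241, the IL-33 receptor IL1RL1 11 and AC007278.1 2. IL18R1 measured 1.57, 0.859 and 1.29 CPM in controls and 2.71, 2.45 and 1.79 CPM at 72 h, a log2 fold change of 0.91 ± 0.34 that missed the threshold (edgeR adjusted p 0.0541). Its 72 h libraries lay above all controls, while IL18RAP, the other chain of the IL-18 receptor, had no count. IL1RL1 overlaps IL18R1, so reads of the pair may be shared.

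The genes with the most similar pattern were sought by Pearson correlation of log2 CPM over the 9 libraries, as a description. The points share the split between controls and treated libraries, so many genes score high. For IL1B these were TOMM20 (0.989), RPS9 (0.989) and LRRC75A-AS1 (0.988), all lower after treatment by far less than IL1B, with log2 fold changes of -0.70 to -0.76 at 48 h. For IL1A they were RPL3 (0.990), MTMR1 (0.986) and EIF3K (0.983). IL1A and IL1B correlated with each other at 0.92, which was only rank 600 for IL1B and rank 176 for IL1A. IL1RN matched no gene as closely, with HYPK first at 0.881, and stood at -0.44 against IL1A and -0.34 against IL1B. IL18 stood at -0.81 against IL1B.

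The pathway around these genes was described from lists drawn up with earlier results of these libraries known, using the edgeR fit over all genes. Genes named from a list were mostly picked by size of change among those called. Their adjusted p-values are thus a description and no independent support. Of 64 other genes of IL-1 family machinery, 50 were tested: 7 rose and 0 fell at 48 h, and 10 rose and 2 fell at 72 h. Among all tested genes 14.9% rose and 16.0% fell at 48 h, and 20.4% rose and 19.4% fell at 72 h. The share of machinery genes that rose was thus near that of all genes, and the share that fell was below it. As the lists were drawn up with results known, nothing is read from these shares. Their median log2 fold change was 0.03 and 0.11, beside -0.00 and 0.03 over all genes. None of the other ligands (1 of 5 tested) or other receptors and binding proteins (5 of 8 tested) passed at either time. Without the 72 h library of replicate 3 the machinery counts were 10 and 4 at 48 h and 11 and 1 at 72 h.

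Genes that process and release the ligands, of which 13 of 18 were tested, gave 4 that rose at each time and none that fell. Among all tested genes 14.9% rose and 16.0% fell at 48 h, and 20.4% rose and 19.4% fell at 72 h. With only 13 genes tested, nothing is read from these counts. NLRP1, an inflammasome sensor of keratinocytes, averaged 16.4 ± 4.61 CPM in controls, 72.0 ± 13.5 at 48 h and 103 ± 43.1 at 72 h (SD, n = 3) and rose at both times. Its log2 fold change was 2.14 ± 0.32 (edgeR adjusted p = 0.00226) and 2.66 ± 0.33 (adjusted p = 0.000715), with all treated libraries above all controls. CARD8, a related sensor, rose by 0.71 ± 0.19 and 0.84 ± 0.19 (adjusted p 0.0179 and 0.00644). The inflammatory caspase CASP4 rose by 0.65 ± 0.16 and 0.87 ± 0.16 (adjusted p 0.0132 and 0.00276). PYCARD, the adaptor of inflammasomes, rose at 48 h by 0.72 ± 0.18 (adjusted p 0.0146), and at 72 h differed by 0.48 ± 0.18 (adjusted p 0.0565; the replicate block gave 0.0343). GSDMD, the pore former, rose at 72 h by 0.71 ± 0.17 (adjusted p 0.00833) and is named after its values were seen. Caspase-1 itself (CASP1) had only 47 counts over all libraries, NLRP3 16 and CASP5 0, and none of these 3 was tested. At 48 h the call for CARD8 was lost without control replicate 1 (adjusted p 0.0568), control replicate 2 (0.0698) or 48 h replicate 3 (0.0559), that for CASP4 without control replicate 1 (0.0572), and that for PYCARD without control replicate 1 (0.0617) or 2 (0.0525). PYCARD was called at 72 h without 72 h replicate 1 (0.0226) or with upper-quartile scaling (0.0438). With all libraries of replicate 1 left out, the 48 h calls of NLRP1 (0.055), CARD8 (0.109), CASP4 (0.085) and PYCARD (0.0924) and the 72 h call of GSDMD (0.0795) were lost, and without replicate 2 those of CARD8 (0.105), CASP4 (0.0839) and PYCARD (0.093) at 48 h.

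Of 33 genes of receptor signalling 31 were tested, of which 3 rose and 0 fell at 48 h and 6 rose and 2 fell at 72 h. Among all tested genes 14.9% rose and 16.0% fell at 48 h, and 20.4% rose and 19.4% fell at 72 h. MYD88, the adaptor that binds the IL1R1 and IL1RAP complex, rose from 7.41 ± 1.12 CPM to 18.8 ± 3.76 at 48 h and 19.1 ± 8.59 at 72 h, by 1.34 ± 0.34 and 1.37 ± 0.34 in log2 (edgeR adjusted p 0.0174 and 0.0122). TOLLIP, a negative regulator of the same complex, rose by 0.77 ± 0.16 and 0.96 ± 0.16 (adjusted p 0.00669 and 0.00183). IRAK2 rose at 72 h by 1.75 ± 0.36 (adjusted p 0.00533), and at 48 h its difference of 1.05 ± 0.36 lay at the threshold (adjusted p 0.0525). It passed with the replicate block (0.011), in DESeq2 (0.015), with DESeq2 size factors (0.0452), upper-quartile scaling (0.0499), no low-count filter (9.69e-05) or only 2 groups (0.00544). The kinase MAP3K3 rose by 0.38 ± 0.13 and 0.37 ± 0.13 (adjusted p 0.0467 and 0.042), close to the threshold. Both calls were lost with the replicate block (0.0561 and 0.05), in DESeq2 (0.0518 and 0.0626) and with no low-count filter (0.134 and 0.117), and they were also lost without any 1 of the controls, of replicates 1 and 2 of 72 h, or of replicate 1 of 48 h, and at 48 h also without 48 h replicate 2 (adjusted p 0.0506 to 0.178). Outside the naming rule and named after their values were seen, IRAK4 (0.69) and PELI3 (0.41) rose and the NF-κB subunit REL (-0.81) and UBE2N (-0.48) fell at 72 h. IRAK4 lost its call without control replicate 2 (0.069), PELI3 without control replicate 1 (0.0903) or 2 (0.052), REL without control replicate 1 (0.0517), and UBE2N without any 1 control, 72 h replicate 3 or 48 h replicate 1 or 3 (0.0502 to 0.115). UBE2N was also lost in DESeq2 (0.0561) and with only 2 groups (0.0594), and PELI3 with no low-count filter (0.0834). MYD88 lost its 48 h call without control replicate 1 (0.059), control replicate 2 (0.0711) or 48 h replicate 1 (0.0607), and its 72 h call without control replicate 2 (0.0538). IRAK2 gained its 48 h call without 72 h replicate 1 (0.0317) or 72 h replicate 3 (0.0045). With all libraries of replicate 1 left out MYD88 had 0.156 at 48 h and 0.13 at 72 h, and without replicate 3 it had 0.0683 and 0.0792. TOLLIP lost its 48 h call without replicate 1 (0.105) or replicate 2 (0.101) of all groups. MAP3K3 lost both calls without replicate 1 (0.279 and 0.353) or replicate 2 (0.23 and 0.152) of all groups. At 72 h REL was lost without replicate 1 (0.128) or 2 (0.0929), and IRAK4 without replicate 2 (0.152) or 3 (0.0528). PELI3 (0.2, 0.0715 and 0.0687) and UBE2N (0.134, 0.108 and 0.0908) were lost at 72 h without replicate 1, 2 or 3.

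Genes known to be induced by IL-1 moved in both directions: of 34 listed, 25 were tested, 1 rose and 5 fell at 48 h, and 2 rose and 4 fell at 72 h. The share that fell was near that of all tested genes, 16.0% at 48 h and 19.4% at 72 h. In this fit the share that rose was below that of all tested genes, 14.9% at 48 h and 20.4% at 72 h. At both times the number that rose depended on the setting, and it was higher in DESeq2 and with no low-count filter. With only 25 genes tested, nothing is read from these shares. The median log2 fold change of the response genes was -0.23 at 48 h and 0.10 at 72 h, beside -0.00 and 0.03 over all tested genes. IL6 fell at both times: its controls had 24.5, 34.7 and 18.1 CPM, its 48 h libraries 0.848, 0.245 and 2.36 CPM, and its 72 h libraries 0.564, 0.114 and 1.61 CPM, a log2 change of -4.55 ± 0.79 at 48 h (edgeR adjusted p 0.0044) and -5.09 ± 0.81 at 72 h (0.00225). It was -5.49 at 48 h without 48 h replicate 3 and -6.21 at 72 h without 72 h replicate 3. CXCL6, a neutrophil chemokine, fell by 2.37 ± 0.46 and by 2.39 ± 0.45 (log2) (adjusted p 0.00514 and 0.0033), on 99 counts over all libraries. LIF, an IL-6 family cytokine, fell by 1.23 ± 0.39 and by 2.15 ± 0.41 (adjusted p 0.0355 and 0.00326). Against that direction ZC3H12A, a ribonuclease that degrades cytokine transcripts such as IL6, rose from 8.89 ± 1.37 CPM to 23.7 ± 3.14 and 22.1 ± 3.74, by 1.41 ± 0.19 and 1.31 ± 0.19 (adjusted p 0.00117 and 0.00097). CXCL8, a classical IL-1 target, did not pass at either time, at -1.27 ± 0.47 and -0.97 ± 0.46 (adjusted p 0.0636 and 0.118). The remaining calls, named after their values were seen, were CXCL3 (-2.04) and SOD2 (-0.51) at 48 h, and NFKBIZ (-0.65) and TNFAIP2 (0.94) at 72 h. CXCL3 lost its call without control replicate 1 (0.0528) or 48 h replicate 1 (0.0519), SOD2 without any 1 control or 48 h library or 72 h replicate 2 (0.0523 to 0.137), NFKBIZ without control replicate 2 or 3 or 72 h replicate 1 or 2 (0.0622 to 0.114), and TNFAIP2 without control replicate 1 (0.0878) or 3 (0.0546) or 72 h replicate 3 (0.062). LIF lost its 48 h call without control replicate 2 (0.158) or 3 (0.0791) or 48 h replicate 1 (0.119) or 2 (0.0976). SOD2 was also lost with upper-quartile scaling (0.0798), and NFKBIZ with that scaling (0.0523) or only 2 groups (0.0509). With all libraries of replicate 1 left out, the 48 h calls of IL6 (0.0924), CXCL6 (0.1), LIF (0.0924), CXCL3 (0.151) and SOD2 (0.147) were lost. The 72 h calls of NFKBIZ (0.153) and TNFAIP2 (0.0586) were lost as well. Without replicate 2 the calls of CXCL6 (0.0721) and LIF (0.299) were lost at 48 h and at 72 h (0.0506 and 0.0636). Also lost without replicate 2 were CXCL3 (0.0766) and SOD2 (0.29) at 48 h and NFKBIZ (0.151) and TNFAIP2 (0.0717) at 72 h. Without replicate 3 the call of LIF was lost at 48 h (0.0547) and that of TNFAIP2 at 72 h (0.103). With the replicate block the response genes that rose at 72 h numbered 5 in place of 2.

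**Figure D4:**
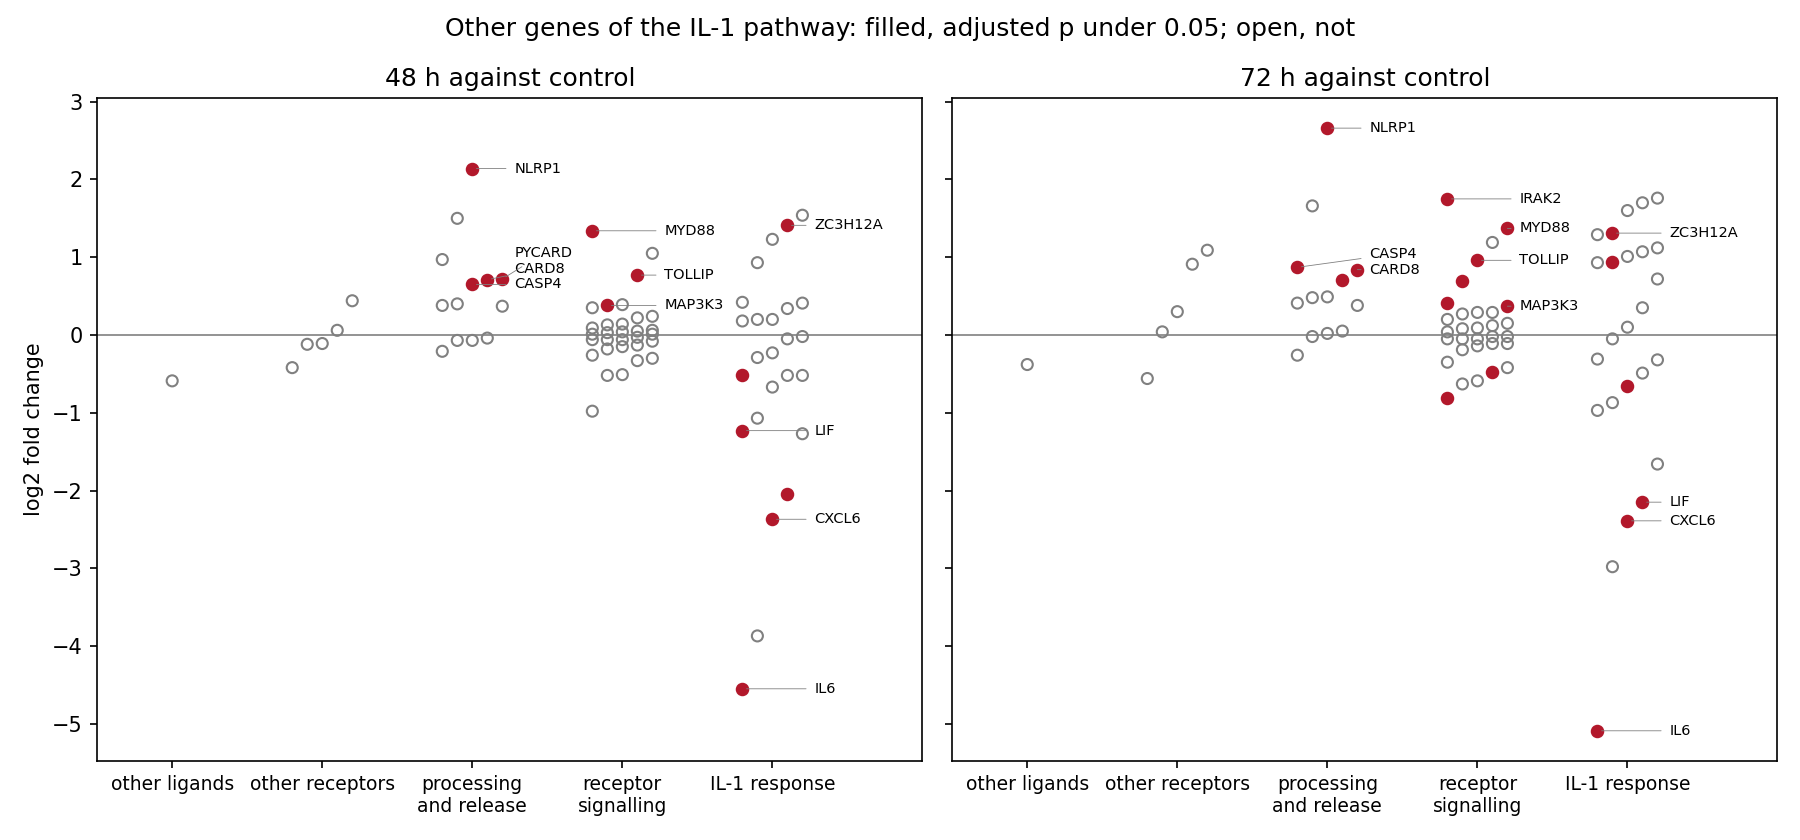
Log2 fold change at 48 h and 72 h against control of the tested genes in 5 lists of IL-1 pathway genes, members left out; filled points have an edgeR adjusted p under 0.05 and those chosen by the naming rule carry their symbols. NLRP1 lies highest among processing genes (2.14 and 2.66) and IL6 lowest among response genes (-5.09 at 72 h).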

How the data were processed

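Each deposited file holds 1 unnormalized read count for every gene of a library, per the labels, on build hg38. The submitters' processing notes name featureCounts 1.5.0-p1, STAR 2.5.2a, FastQC 0.11.5 and bcl2fastq 2.17.1.14. For the annotation, strandedness and multiple alignments the setting is not given in the sources used here, so overlapping genes may share reads. Symbols came from GENCODE 29 (57895 of 58233 identifiers; the 338 others held 0.0145% to 0.0202% of counts).

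Under R 4.3.3, edgeR 4.0.16 (TMM, filterByExpr, robust quasi-likelihood F test, all 9 libraries, 6 residual degrees of freedom) tested 15440 genes, with Benjamini-Hochberg adjustment at 0.05. CPM use TMM-scaled totals; SE was approximated by dividing the size of the log2 fold change by the root of F.

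Members and lists were chosen with earlier results of these data known. The naming rule took up to 4 genes per list by size of change, at 1 CPM or more, first those called at both times and then those called at 1, and all cluster neighbours with a count. Same-numbered libraries share a passage per the labels; their deviations correlated at 0.04 to 0.12 between controls and treated groups and at -0.03, 0.49 and 0.49 between 48 h and 72 h, so the pairing rests on the labels. Replicates differed beyond sampling noise (chi-square per degree of freedom 8.99 to 159). Alternatives were DESeq2 1.42.0, other scalings and filters, the replicate block (4 residual degrees of freedom), 2 groups only, and libraries left out. Promoter windows of 8 of the 9 members were matched in RefSeq.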

Additional observations from a re-analysis of the deposited data

How the results depend on the processing

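No member's log2 fold change moved by more than the replicate spread under another tool, scaling, filter, the replicate block or 2 groups only (165 values), and when libraries were left out 19 values did so and 269 did not. That spread is wide for IL1A at 72 h, so its shift from -1.74 to -2.31 with the replicate block did not count as a move. The measure is thus lenient for members with a wide spread. At 48 h against control, 4779 genes were called, or 765 to 6289 with libraries left out. Machinery genes that rose then numbered 0 to 10 and those that fell 0 to 4; response genes that rose numbered 1 to 2 and those that fell 0 to 7. At 72 h the calls were 2602 to 6184, machinery 6 to 11 higher and 0 to 2 lower, and response 2 to 7 higher and 2 to 7 lower. The lowest 48 h counts came without replicate 1 of all groups. In DESeq2, response genes that rose were 2 at 48 h and 7 at 72 h, machinery genes that fell at 72 h 1, and genes called between 48 h and 72 h 41. Without a low-count filter, response genes that rose were 3 at 48 h, 7 at 72 h and 3 between the times, machinery genes that fell at 48 h 2, and genes called between the times 211. With only 2 groups in the fit, machinery genes numbered 13 higher and 1 lower at 48 h and 1 lower at 72 h, and response genes that rose at 72 h 4. Upper-quartile scaling gave 5 response genes that rose at 72 h. The replicate block, which pairs libraries of a passage, also gave 5, and beside the calls given above for IL18, IL36G, PYCARD, IRAK2 and MAP3K3 it added NFKBIZ at 48 h (adjusted p 0.0177). The cause of these shifts was not tested, save that libraries left out leave fewer samples. Genes with few counts, IL36G, IL1R2 and IL1R1 among them, are limited by depth.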
